A study of Homo sapiens with 24 samples.

Results

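The integrin receptor genes described here are 10 named genes, ITGA1, ITGA2, ITGA3, ITGA5, ITGA6, ITGA11, ITGAV, ITGB1, ITGB3 and ITGB8, of the 58735 genes in the count files. They were taken by symbol from a list of integrin chains, and all 10 matched a gene identifier and passed the filter on low counts in every test. Their RNA was measured in HT-144, an established human cell line from a melanoma metastasis, grown in RPMI medium with insulin, transferrin and selenium. All cells went through reverse transfection with a lipid reagent and were harvested after 3 days. The control groups were a mock transfection, which received no oligonucleotide, a non-targeting small interfering RNA (siNegative, 50 nM) and a non-targeting antisense oligonucleotide (ASO-Neg, 5 nM). The groups targeting SREBF1, the gene of a transcription factor of lipid synthesis, were a pooled small interfering RNA (siSREBF1, 50 nM) and the antisense oligonucleotides ASO-SREBF1-S1 and ASO-SREBF1-S4 (5 nM each). Each group was 1 library, sequenced on 4 lanes that were summed. The 24 deposited files therefore hold 6 libraries of 1 cell line, and no group has a replicate culture.

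Integrins are the main receptors by which cells hold on to extracellular matrix. Each is a pair of an alpha and a beta chain, and the pairing sets what is bound: ITGA1, ITGA2 and ITGA11 pair with ITGB1 and bind collagens, ITGA3 and ITGA6 bind laminins, and ITGA5 with ITGB1 binds fibronectin through its RGD motif. ITGAV pairs with ITGB1, ITGB3 or ITGB8, among others, and binds vitronectin, fibronectin and the latent form of TGF-beta. In melanoma the receptor of ITGAV and ITGB3 is known for its rise as tumours pass from radial to invasive growth.

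Depth ranged from 12916478 gene counts in mock to 47900277 in ASO-SREBF1-S1, which was the deepest by far, with 20014261 in the next. A count of 3 was worth 0.0626 to 0.232 CPM (counts scaled to library size and composition), and each of the 10 members had at least 127 counts in each library. The targeted gene followed the labels: SREBF1 was at 217 to 250 CPM in the 3 controls and at 55.0 to 77.1 CPM in the 3 SREBF1-targeting libraries. All 8 pigment cell markers looked at (MITF, PMEL, MLANA, TYR, TYRP1, DCT, SOX10, S100B) were expressed, with a summed level of 4131 to 6291 CPM. PTPRC, the common leukocyte marker, was at or under 0.746 CPM, and platelet markers summed to at most 0.101 CPM. Keratinocyte markers summed to 22.7 to 29.1 CPM, nearly all of it KRT10, and endothelial markers to 37.8 to 57.3 CPM, nearly all of it KDR. PPBP, GP9 and KRT1 had no count in any library.

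The stretches before the start sites of 3 members are shown because the description turns on these members: ITGA11 had the smallest p of the members in the comparison of targeting with control libraries and ITGB8 in that of the siRNA with the oligonucleotides, although neither passed, and ITGA5 is the fibronectin receptor chain that was lowest in ASO-SREBF1-S1. They are RefSeq sequences on GRCh38.p14, 5′ to 3′ on the gene's strand, and each ends on the first base of the outermost transcript in GENCODE. The ITGA11 window is chr15:68432163-68432413, the ITGB8 window chr7:20330650-20330702 and the ITGA5 window chr12:54419266-54419516. Capitals mark matches to the motifs named in the next paragraph.
ITGA11: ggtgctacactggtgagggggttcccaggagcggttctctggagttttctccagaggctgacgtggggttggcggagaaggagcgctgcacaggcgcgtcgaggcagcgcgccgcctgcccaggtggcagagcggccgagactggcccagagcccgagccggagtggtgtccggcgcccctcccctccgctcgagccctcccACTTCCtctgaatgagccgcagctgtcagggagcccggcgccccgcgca
ITGB8: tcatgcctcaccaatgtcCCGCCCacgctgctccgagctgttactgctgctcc
ITGA5: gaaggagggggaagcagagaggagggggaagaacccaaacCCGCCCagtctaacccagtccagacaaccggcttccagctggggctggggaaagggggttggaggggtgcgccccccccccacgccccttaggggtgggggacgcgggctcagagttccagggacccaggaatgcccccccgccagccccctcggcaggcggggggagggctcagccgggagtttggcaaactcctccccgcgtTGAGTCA

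Motifs were searched on both strands in windows of 300 bases around RefSeq start sites, of which the table held 11 for 8 of the members (ITGA3 and ITGB3 were not matched). The SREBP site TCACNCCAC was in 1.13% of all 35116 windows and in none of the 11. An E-box, CACGTG, was in 7.26% of windows and, among the members, in ITGA6. The AP-1 motif TGANTCA was in 7.71% of windows and in ITGA5, where its first base is 6 before the start site. The GC box GGGCGG was in 44.95% of windows and in 6 of the 11, from 5 members (ITGA2, ITGA5, ITGA6, ITGB1 and ITGB8). The ETS core GGAAGT was in 22.8% of windows and in 4 of the 11, from 3 members (ITGA11, ITGAV and ITGB1). No motif overlapped another in the printed stretches. A match describes letters only.

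HT-144 cells carried high RNA levels of the chains that make laminin and fibronectin receptors. Per exon length, in TPM (counts scaled to exon length and to the library's total), ITGA3 was highest at 290 ± 44.8 (SD over the 6 libraries), followed by ITGA5 at 269 ± 38.8, ITGA6 at 199.98 ± 28.2, ITGB3 at 179 ± 34.4 and ITGB1 at 161 ± 20.9. The ranges of direct neighbours overlapped, so adjacent places do not exceed the spread between libraries. Genes further apart could be separate on this scale. ITGA3 (at least 223 TPM) lay above ITGA6 (at most 219.9) and ITGB1 (at most 186), and ITGA5 (at least 216) above ITGB1. Within each library ITGA5 also stood above ITGA6. A step down led to ITGB8 at 40.8 ± 7.89 TPM and ITGAV at 37.7 ± 3.31 TPM, which also overlapped. The collagen-binding chains came last, and each was separated from the one above in all 6 libraries: ITGA2 at 27.6 ± 3.49 TPM, ITGA1 at 15.9 ± 3.68 TPM and ITGA11 at 4.34 ± 1.60 TPM. With the length of the longest transcript in place of all exons, ITGB1 was 1.92 times as high and moved to second place, and ITGAV was 1.80 times as high and stood above ITGB8. On that scale ITGA2 and ITGA1 were no longer separated, at 16.8 to 24.3 and 13.7 to 27.2 TPM. ITGB3 is an undercount of unknown size, because 33.2% of its exon bases (2266) also belong to a read-through gene on the same strand, which had 0 counts in every library; reads in shared bases name no gene.

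**Figure D1:**
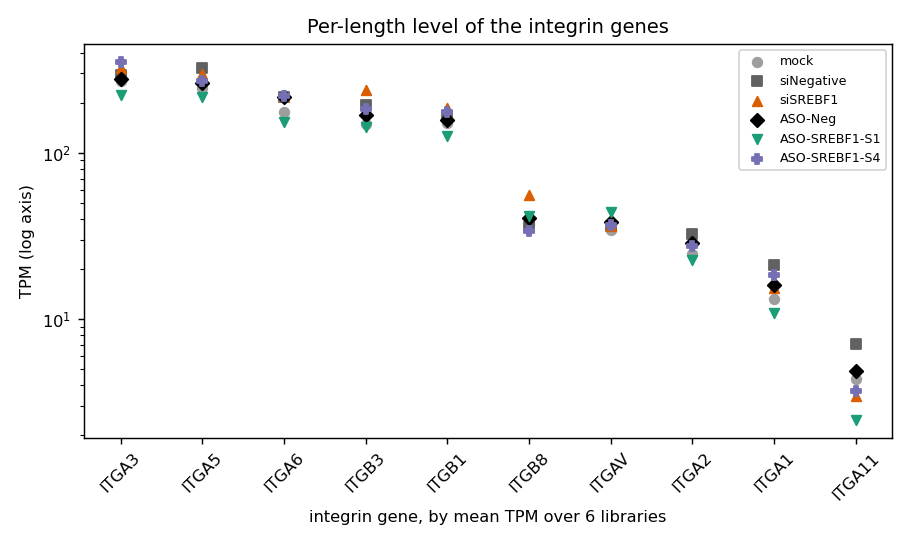
TPM (log axis) of the 10 integrin genes, ordered by mean, with 1 point per library. ITGA3, ITGA5, ITGA6, ITGB3 and ITGB1 lie together above 126 TPM, and ITGA11 lies below all others at 2.48 to 7.14 TPM.

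No integrin gene passed an adjusted p of 0.05 when edgeR compared the 3 targeting libraries with the 3 controls by its quasi-likelihood test, in which 9 of 15123 genes (0.0595%) passed. Without an adjustment 1 member, ITGA11, was lower at 0.05, against 5.30% of all genes lower and 10.2% in either direction. The members' median log2 ratio was -0.06 beside 0.01 over all genes, with 4 members above 0 and 6 below, where 51.5% of genes were above 0. Apart from ITGA11 the fitted log2 ratios lay between -0.25 and 0.15, with adjusted p from 0.662 to 0.980. The count of 9 genes depends on the libraries: it was 1 without mock, 1 without ASO-Neg, 3 without siNegative and 103 without ASO-SREBF1-S1. As the RNA is from whole cultures, fewer cells of a type and less RNA per cell cannot be told apart.

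**Figure D2:**
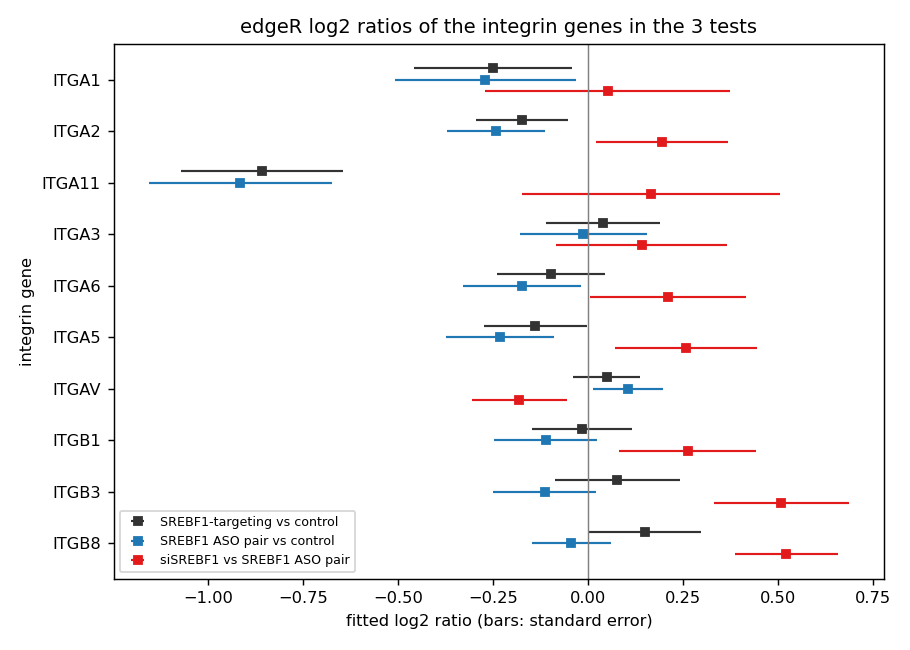
Fitted log2 ratio (horizontal axis) of the 10 integrin genes (vertical axis) in the 3 edgeR tests, with standard errors as bars. ITGA11 lies at -0.86 and -0.92 against the controls, and ITGB3 and ITGB8 lie at 0.51 and 0.52 for siSREBF1 against the oligonucleotides.

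Among the collagen receptors, ITGA11 (ENSG00000137809, chromosome 15, 68296532 to 68432163, minus strand), a chain of fibrillar collagen receptors best known from fibroblasts, had the lowest level and the widest range. It was at 12.6 (mock), 20.5 (siNegative) and 14.2 CPM (ASO-Neg) among the controls and at 9.48 (siSREBF1), 6.89 (ASO-SREBF1-S1) and 10.5 CPM (ASO-SREBF1-S4) among the targeting libraries. All 3 targeting libraries lay below all 3 controls, a separation that 17.4% of genes showed in either direction and 8.52% in this one, and no other member showed it. The means were 8.94 ± 1.85 CPM against 15.8 ± 4.17 CPM (SD, n = 3 each), a log2 ratio of -0.86 (SE 0.21, adjusted p = 0.237 by edgeR). DESeq2's Wald test gave ITGA11 an adjusted p of 0.0145, and edgeR without the filter on low counts gave 4.99e-07; these settings call 170 and 509 genes. With the chemistry of the reagent as a term the adjusted p was 0.802, and leaving out each library in turn it was 0.151 to 0.730, at log2 ratios of -0.999 to -0.62. The summed level of 6 fibroblast markers was also lower in the targeting libraries, at 101 to 115 CPM against 127 to 136 CPM. Most of it came from LUM and FAP, and the other markers did not separate the sides. Means in controls and targeting libraries were 1.59 and 2.07 CPM for DCN, 1.21 and 1.27 for PDGFRA, and 7.40 and 5.79 for PDGFRB. THY1 was at or under 0.235 CPM throughout. The part of the summed markers in the ITGA11 result was not tested.

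ITGA11 was lower than in the matched control with each reagent. Single libraries are compared by the log2 ratio of CPM with a prior count of 2 and a 95% counting interval, which covers counting error only. The ratio was -1.11 (-1.39 to -0.82) for siSREBF1 over siNegative, -1.03 (-1.27 to -0.79) for ASO-SREBF1-S1 over ASO-Neg and -0.44 (-0.72 to -0.15) for ASO-SREBF1-S4 over ASO-Neg. The first and second are past 2-fold lower, as were 0.213% and 0.328% of genes with 10 CPM in 1 of the libraries. The siNegative control was itself higher than mock, by 0.69 (0.43 to 0.96).

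The other collagen-binding chains among the members did not separate the sides. ITGA1 (ENSG00000213949, chromosome 5, 52787916 to 52959209), a chain for network-forming collagen, was at 65.8 (mock), 104 (siNegative) and 79.5 CPM (ASO-Neg) among the controls and at 71.8 (siSREBF1), 51.3 (ASO-SREBF1-S1) and 88.6 CPM (ASO-SREBF1-S4) among the targeting libraries. It was lower with siSREBF1 and ASO-SREBF1-S1 than in their controls, with log2 ratios of -0.54 (-0.65 to -0.43) and -0.63 (-0.73 to -0.53), and higher with ASO-SREBF1-S4 at 0.16 (0.05 to 0.26). ITGA2 (ENSG00000164171), its neighbour on chromosome 5 at 52989340 to 53094779, and a receptor chain for fibrillar collagen, had a narrower range. It stood at 52.1 (mock), 68.1 (siNegative) and 60.2 CPM (ASO-Neg) among the controls and at 58.4 (siSREBF1), 45.9 (ASO-SREBF1-S1) and 56.7 CPM (ASO-SREBF1-S4) among the targeting libraries. The targeting and control values of both genes overlapped, and their adjusted p was 0.721 and 0.662 in the edgeR test.

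ITGA10, a collagen-binding chain of cartilage that is not among the 10 members, had values like those of ITGA11. Its levels were 14.7, 23.5 and 14.9 CPM in mock, siNegative and ASO-Neg, and 10.8, 8.26 and 8.43 CPM in siSREBF1, ASO-SREBF1-S1 and ASO-SREBF1-S4. The sides did not overlap, with the targeting libraries lower, as for 8.52% of genes. The log2 ratio was -0.97 (SE 0.20, adjusted p = 0.174 by edgeR). Relative to ITGB1, the shared partner of the collagen chains, ITGA11 stood at a CPM ratio of 0.0139 to 0.0157 in the targeting libraries and 0.0215 to 0.0321 in the controls. The same ratio overlapped for ITGA1 and ITGA2.

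**Figure D3:**
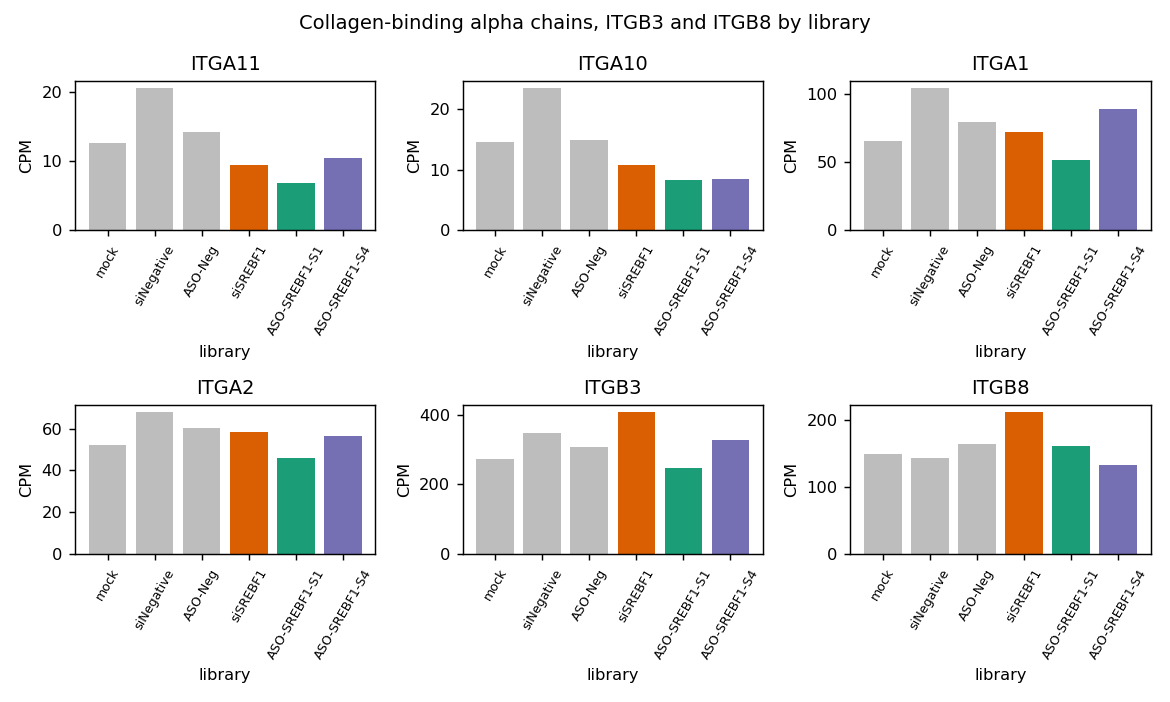
CPM (bars, from 0) of the collagen-binding chains ITGA11, ITGA10, ITGA1 and ITGA2 and of ITGB3 and ITGB8 in the 6 libraries, controls in grey. ITGA11 and ITGA10 are lower in all 3 targeting libraries than in any control, and ITGB3 and ITGB8 are highest in siSREBF1, at 409 and 213 CPM.

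Of the laminin receptor chains, ITGA3 (ENSG00000005884, chromosome 17, 50055968 to 50090481), which is abundant on epithelial cells, varied most between the oligonucleotides. It was at 709 (mock), 763 (siNegative) and 726 CPM (ASO-Neg) among the controls and at 802 (siSREBF1), 559 (ASO-SREBF1-S1) and 896 CPM (ASO-SREBF1-S4) among the targeting libraries. ASO-SREBF1-S1 and ASO-SREBF1-S4 thus gave its lowest and its highest value. Over the ASO-Neg library that both share, the log2 ratios were -0.38 (-0.41 to -0.34) and 0.30 (0.27 to 0.34). ITGA6 (ENSG00000091409, chromosome 2, 172427354 to 172506459), a chain of the basement membrane laminin receptors, was at 316 (mock), 380 (siNegative) and 385 CPM (ASO-Neg) among the controls and at 370 (siSREBF1), 261 (ASO-SREBF1-S1) and 380 CPM (ASO-SREBF1-S4) among the targeting libraries. Only the ASO-SREBF1-S1 value lay outside the control range, at a log2 ratio of -0.56 (-0.60 to -0.51) over ASO-Neg.

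ITGA5 (ENSG00000161638, chromosome 12, 54395261 to 54419266, minus strand), the fibronectin receptor chain, was at 482 (mock), 635 (siNegative) and 514 CPM (ASO-Neg) among the controls and at 555 (siSREBF1), 407 (ASO-SREBF1-S1) and 521 CPM (ASO-SREBF1-S4) among the targeting libraries. Its sides overlapped, and it was lower with siSREBF1 than with siNegative at -0.19 (-0.24 to -0.15). ITGAV (ENSG00000138448, chromosome 2, 186590010 to 186680901), the chain of the vitronectin and latent TGF-beta receptors, had the narrowest range, from 177 CPM in mock to 217 in ASO-SREBF1-S1. Between them lay siSREBF1 at 178, ASO-SREBF1-S4 at 185, siNegative at 186 and ASO-Neg at 198 CPM. ITGAV was the only member that was highest in ASO-SREBF1-S1, which was the highest library for 19.1% of genes, with a log2 ratio of 0.13 (0.07 to 0.19) over ASO-Neg.

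The beta chains set which receptors the alpha chains can form. ITGB1 (ENSG00000150093, chromosome 10, 32887273 to 33005792, minus strand), the common partner of the collagen, laminin and fibronectin chains, was at 588 (mock), 640 (siNegative) and 614 CPM (ASO-Neg) among the controls and at 683 (siSREBF1), 471 (ASO-SREBF1-S1) and 667 CPM (ASO-SREBF1-S4) among the targeting libraries. The controls were close together and the targeting libraries lay on both sides of them. ITGB1 was lower with ASO-SREBF1-S1 than with ASO-Neg, at -0.38 (-0.42 to -0.35), and higher with ASO-SREBF1-S4 and with siSREBF1 over their controls, at 0.12 (0.08 to 0.16) and 0.09 (0.05 to 0.13). As ITGAV was not lower there, the CPM ratio of ITGAV to ITGB1 was 0.460 in ASO-SREBF1-S1 against 0.260 to 0.322 in the other 5 libraries.

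ITGB3 and ITGB8, which both pair with ITGAV, were highest with the siRNA pool against SREBF1, as was ITGB1. ITGB5, a partner of ITGAV outside the members, was instead lowest in siSREBF1, at 399 CPM against 494 CPM in siNegative. ITGB3 (ENSG00000259207, chromosome 17, 47253827 to 47313743) was at 274 (mock), 348 (siNegative) and 308 CPM (ASO-Neg) among the controls and at 409 (siSREBF1), 248 (ASO-SREBF1-S1) and 327 CPM (ASO-SREBF1-S4) among the targeting libraries. ITGB8 (ENSG00000105855, chromosome 7, 20330702 to 20415754), whose receptor activates latent TGF-beta, was at 150 (mock), 143 (siNegative) and 165 CPM (ASO-Neg) among the controls and at 213 (siSREBF1), 162 (ASO-SREBF1-S1) and 134 CPM (ASO-SREBF1-S4) among the targeting libraries. In both genes, and in 19% of all genes, the siSREBF1 library stood above the other 5, which lay between 134 and 165 CPM for ITGB8. Over siNegative the log2 ratio was 0.23 (0.18 to 0.28) for ITGB3 and 0.57 (0.50 to 0.65) for ITGB8.

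The edgeR test of siSREBF1 against the ASO-SREBF1-S1 and ASO-SREBF1-S4 pair called 24 of 16297 genes (0.147%), none of them a member. ITGB8 had a log2 ratio of 0.52 (SE 0.14, adjusted p = 0.261 by edgeR) and ITGB3 of 0.51 (SE 0.18, adjusted p = 0.443 by edgeR). These were the 2 members past an unadjusted 0.05, both higher, where 4.39% of genes were. The members' median was 0.20 beside 0.00 over all genes, and 9 of 10 ratios were above 0, as were 49.2% of all genes, ITGAV being the exception at -0.18. The number of genes called was 2 without mock, 3 without siNegative, 2 without ASO-Neg, 395 without ASO-SREBF1-S1 and 890 without ASO-SREBF1-S4; the last pair of fits takes its spread from the controls alone. ITGB8 was at 0.67 without ASO-SREBF1-S1 and 0.39 without ASO-SREBF1-S4, and ITGB3 at 0.32 and 0.72. ITGA3, ITGA6 and ITGB1 were at 0.52, 0.50 and 0.53 without ASO-SREBF1-S4, and at -0.16, -0.039 and 0.030 without ASO-SREBF1-S1. These 2 fits set siSREBF1 against 1 oligonucleotide library, so only the members' ratios are given. The siSREBF1 side was 1 library, which was assumed to vary like the others, so the SE and p hold no spread of its own. The siRNA pool was used at 50 nM and the oligonucleotides at 5 nM, so the dose and the chemistry cannot be told apart here. Relative to ITGAV, ITGB8 stood at a CPM ratio of 1.199 in siSREBF1 and 0.722 to 0.850 in the other libraries.

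In the edgeR test of the oligonucleotide pair against the controls 7 of 16297 genes passed (0.0430%) and again no member did. ITGA11 was at -0.92 (SE 0.24, adjusted p = 0.229 by edgeR), with adjusted p from 0.531 to 0.986 for the other members. The median was -0.14 beside 0.01 over all genes, and 9 of 10 ratios were below 0, where 51.2% of all genes were above 0. ITGA11 was the member lower at an unadjusted 0.05, against 5.86% of genes. The count of 7 genes was 1 without mock, without siNegative or without ASO-Neg, 955 without ASO-SREBF1-S1 and 868 without ASO-SREBF1-S4, again with the spread of the controls alone in the last pair. Leaving out ASO-SREBF1-S1 turned the ratios of ITGA1, ITGA3, ITGA6, ITGB1 and ITGB3 above 0 and that of ITGAV below 0, with ITGA3 at 0.29. Leaving out ASO-SREBF1-S4 instead, only ITGAV (0.21) and ITGB8 (0.089) were above 0. The ratios of the other members then ran from -1.21 (ITGA11) to -0.32 (ITGB3), with ITGA3 at -0.39. Each of these fits holds 1 oligonucleotide library, so only the members' ratios are given.

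ASO-SREBF1-S1 stood apart from the other libraries in most members. It gave the lowest value of 8 of the 10 members, all but ITGAV and ITGB8, where it was the lowest library for 17.4% of 15123 genes. Mock was lowest for ITGAV, as for 15.9% of genes, and ASO-SREBF1-S4 for ITGB8, as for 21.7%. Against ASO-Neg, 8 members were lower in ASO-SREBF1-S1 beyond counting error, against 24.2% of genes, and the median log2 ratio was -0.38 beside 0.01 over all genes. ASO-SREBF1-S4, measured against the same ASO-Neg library, had 4 members higher (ITGA1, ITGA3, ITGB1, ITGB3) where 18.4% of genes were, and 3 lower (ITGA11, ITGAV, ITGB8) where 27.5% were, with a median of 0.00 beside -0.02. The labels give both as oligonucleotides against SREBF1 at 5 nM, and with 1 library each their difference has no test. In 7 members (ITGA1, ITGA2, ITGA3, ITGA5, ITGA6, ITGB1 and ITGB3) the 2 lowest libraries were ASO-SREBF1-S1 and mock, an arrangement that 7.23% of genes had. These counts were chosen after the values were seen.

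**Figure D4:**
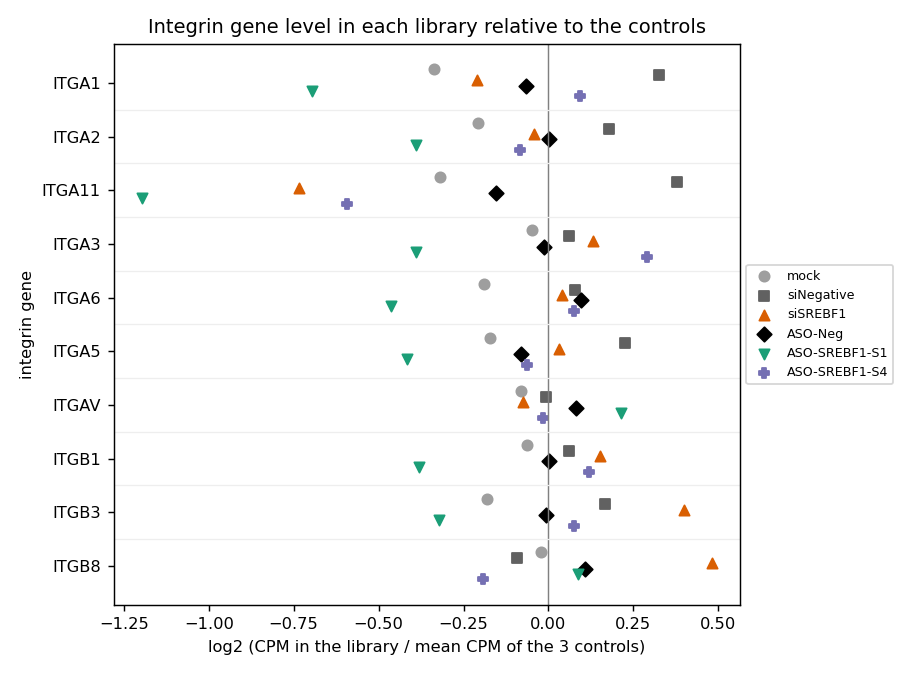
log2 of each library's CPM over the mean of the 3 controls (horizontal axis) for the 10 integrin genes (vertical axis), 1 point per library. ASO-SREBF1-S1 is the leftmost point in 8 genes, and siSREBF1 is the rightmost in ITGB1, ITGB3 and ITGB8.

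ASO-SREBF1-S1 and mock were also the libraries with the highest summed pigment cell markers, at 5596 and 6291 CPM against 4131 to 5055 CPM in the other 4. Of these markers S100B went the other way, being lowest in ASO-SREBF1-S1 at 197 CPM, and each of the others was highest in these libraries. This likeness was seen after the values were known. The part of the difference in summed markers, and of the greater depth of ASO-SREBF1-S1, in the integrin values was not tested. With each sequencing lane taken alone, 8 members were lowest in ASO-SREBF1-S1 in lanes 1, 2 and 3 and 7 in lane 4. The lanes of a group hold the same library, so this bears on counting error only.

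With siSREBF1 the members went both ways against siNegative. ITGA3, ITGB1, ITGB3 and ITGB8 were higher beyond counting error (4 of 10, against 18.9% of genes), and ITGA1, ITGA2, ITGA5 and ITGA11 were lower (4 of 10, against 22.1%). The median was -0.05 beside -0.01 over all genes. All 3 collagen-binding chains among the members were thus lower and all 3 beta chains among them higher in this pair of libraries. This grouping was made after the values were seen. Outside the members, the collagen-binding ITGA10 was also lower, at 10.8 CPM in siSREBF1 against 23.5 CPM in siNegative. The beta chain ITGB5 was lower as well, at 399 against 494 CPM, unlike the beta chains among the members.

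**Figure D5:**
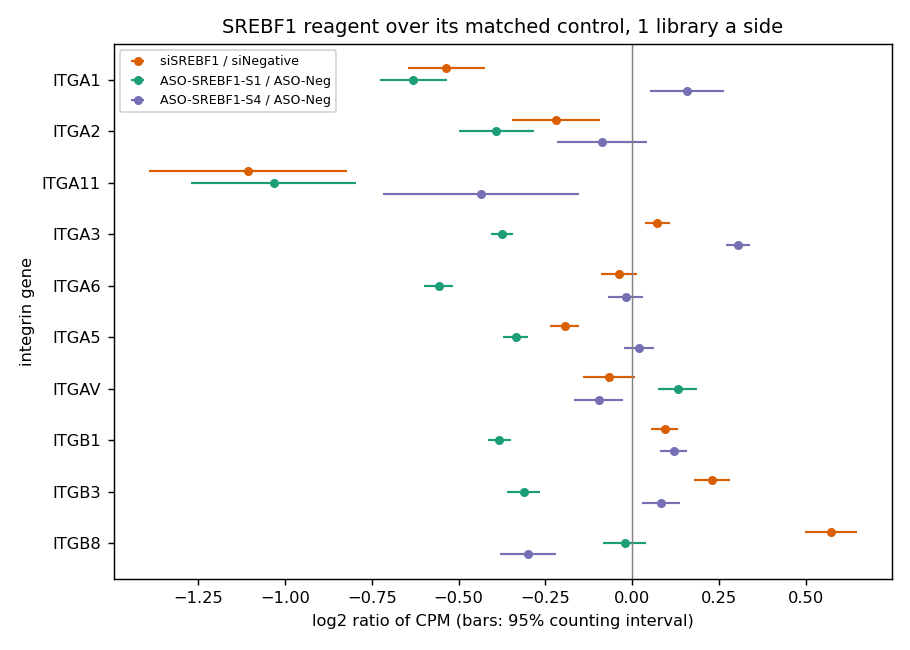
log2 ratio of CPM (horizontal axis, bars the 95% counting interval) of each SREBF1 reagent over its matched control for the 10 integrin genes (vertical axis). ITGA11 is below 0 with all 3 reagents, ITGA3 is at -0.38 with ASO-SREBF1-S1 and 0.30 with ASO-SREBF1-S4, and ITGB8 reaches 0.57 with siSREBF1.

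The non-targeting controls were above mock in most of the members. Both contrasts share the mock library, so they are given side by side. In siNegative 8 members were higher than in mock and none lower, against 12.4% and 12.8% of genes, with a median of 0.31 beside 0.00 over all genes. ITGA11 at 0.69 and ITGA1 at 0.66 (0.55 to 0.78) were at the top, and ITGAV and ITGB8 were the members whose intervals held 0. In ASO-Neg 8 members were higher and none lower, against 16.9% and 14.3% of genes, with a median of 0.16 beside 0.01. The largest of these was ITGA6 at 0.29 (0.23 to 0.34), and ITGA3 and ITGA11 had intervals that held 0. No member differed 2-fold in either contrast. Of all genes with 10 CPM, 0.0102% were 2-fold higher and 0% lower in siNegative, and 0.0102% higher and 0.0819% lower in ASO-Neg.

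Of 16 other integrin chains listed, 8 had enough counts for the test of targeting against control libraries, and none passed. ITGB5, another partner of ITGAV, was the most abundant in CPM at 399 to 574, followed by ITGA9 at 94.2 to 231 and ITGA4 at 52.9 to 136. ITGA4, a chain of fibronectin and VCAM receptors, and ITGA9, a chain of tenascin receptors, were lowest in ASO-SREBF1-S1, with adjusted p of 0.721 and 0.546 in the edgeR test. Of the 8 tested chains 4 were lowest in ASO-SREBF1-S1 (ITGA4, ITGA9, ITGA10 and ITGAX), against 17.4% of genes, and ITGA7, ITGB5, ITGAE and ITGA2B were not. ITGAE, a chain of lymphocytes that hold to epithelium, was at 8.16 to 10.5 CPM. The leukocyte chains ITGAL, ITGAM and ITGB2 were at or under 0.314 CPM, but ITGAX, another leukocyte chain, was at 14.2 to 25.9 CPM. The epithelial ITGB6 and ITGB4 were at or under 0.246 CPM.

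Inside the cell, talin, kindlin, paxillin and focal adhesion kinase link integrins to actin and signalling. None of the 28 measured adaptor genes of 29 listed passed the test, with 4 higher and 1 lower at an unadjusted 0.05, against 4.93% and 5.30% of all genes, and a median log2 ratio of 0.00 beside 0.01 over all genes. The gene with the smallest p was TNS1, tensin, which ties the ITGB1 tail to actin. It was at 26.2, 21.1 and 19.1 CPM in mock, siNegative and ASO-Neg, and at 10.8, 12.4 and 12.4 CPM in siSREBF1, ASO-SREBF1-S1 and ASO-SREBF1-S4. It was lower without overlap, as were 8.52% of genes. Its log2 ratio was -0.89 (SE 0.13, adjusted p = 0.0738 by edgeR). SRC, a kinase of adhesion sites, was at 52.2 ± 1.04 CPM in controls and 64.3 ± 9.73 CPM in targeting libraries (SD, n = 3 each), PXN, paxillin, at 309 ± 13.7 and 367 ± 38.8 CPM, and RAP1B, a switch of integrin activation, at 58.1 ± 0.753 and 68.1 ± 3.49 CPM, with adjusted p of 0.295 to 0.375 in the edgeR test.

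Of 34 listed ligands 30 were measured and none passed, with 3 higher and 3 lower at an unadjusted 0.05, against 4.93% and 5.30% of all genes, and a median of 0.01 beside 0.01 over all genes. FN1, fibronectin, the ligand of ITGA5, was at 1243, 1216 and 1461 CPM in mock, siNegative and ASO-Neg, and at 1741, 1794 and 1750 CPM in siSREBF1, ASO-SREBF1-S1 and ASO-SREBF1-S4. The sides did not overlap, as for 17.4% of genes in either direction, and the log2 ratio was 0.43 (SE 0.09, adjusted p = 0.176 by edgeR). CCN1 and THBS1, matricellular ligands of ITGAV receptors, had log2 ratios of 1.05 (SE 0.25, adjusted p = 0.222) and 1.00 (SE 0.28, adjusted p = 0.274) in the same edgeR test. Against the controls the oligonucleotide pair had 1.26 for both, with adjusted p of 0.0602 and 0.0666 by edgeR. THBS1 was at 163 CPM (ASO-SREBF1-S1) and 109 CPM (ASO-SREBF1-S4), beside 68.7 in siSREBF1 and 44.03 to 69.8 in the controls. LAMB1, a laminin chain, was at 924 ± 44.6 CPM in controls and 788 ± 48.9 CPM in targeting libraries (SD, n = 3 each), with an adjusted p of 0.356 by edgeR.

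The 13 listed membrane partners and trafficking genes were all measured and none passed, with a median of 0.00 beside 0.01. RAB21, which carries internalised integrins, was at 56.5 ± 2.54 CPM in controls and 67.8 ± 2.77 CPM in targeting libraries, and RAB4A, of the fast recycling route, at 34.2 ± 1.84 and 28.8 ± 3.59 CPM (SD, n = 3 each). Their adjusted p was 0.263 and 0.465 in the edgeR test. CD63, a tetraspanin, and CAV1, caveolin, had adjusted p of 0.608 and 0.750 by edgeR.

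ITGA11 had the widest range of the members, so the genes most like it in pattern were listed by Pearson's r of log2 CPM over the 6 libraries. Of 9673 genes with a mean of 10 CPM or more, 96 had r above 0.9, led by STN1 at 0.99, then SUN2, BLMH, DNAJB6 and LRP8 at 0.98. Their range was far smaller than that of ITGA11: STN1 went from 17.2 CPM in ASO-SREBF1-S1 to 21.5 in siNegative. The points share library depth and scaling, and the values are a description.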

How the data were processed

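The values used were whole-number read counts per gene that the authors deposited, 1 file per lane, made with STAR 2.6.1a on GRCh38 per the submitters' processing notes. The annotation used for counting is not given in the sources used here. The reverse-strand column was used, 4 summary lines per file were left out (80.7% to 81.8% of read pairs were assigned to a gene), and lanes were summed into 6 libraries. Positions and lengths are from GENCODE 44. Lanes of 1 library differed by a chi-square per degree of freedom of 1.00 to 1.07, against 1.92 to 8.80 between libraries.

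Tests used edgeR 4.0.16 (R 4.3.3; TMM, filterByExpr, quasi-likelihood F test, 2-sided, Benjamini-Hochberg over all genes at 0.05), as 3 targeting against 3 control libraries, and as a fit of 3 classes. Libraries of a side received different reagents and nothing marks separate cultures, so the p-values reflect no more than how these libraries vary, which may be technical. On simulated data 1.5-fold changes were recovered at 84% by the targeting test (15129 genes), 76% by that of the oligonucleotide pair (16116) and 34% by that of siSREBF1 against the pair (16032). Every simulated gene had the same spread, with no difference between the reagents of a side. How often such changes would pass in the real libraries is therefore not known from these shares. DESeq2 1.42.0 and limma 3.58.1 were alternatives. Named genes were the members, SREBF1, up to 4 genes per pathway list by smallest p, and the 5 genes most like the member of widest range. Members and lists were chosen with earlier results of these data known.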

Additional observations from a re-analysis of the deposited data

Results flagged for a closer look

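ITGB8 stood out because its ratio was above 0 with the siRNA pool and below 0 with both oligonucleotides. The log2 ratio was 0.57 for siSREBF1 over siNegative, -0.02 for ASO-SREBF1-S1 over ASO-Neg and -0.30 for ASO-SREBF1-S4 over ASO-Neg, and the first exceeded the mean of the others by 0.73. The interval of the ASO-SREBF1-S1 ratio, -0.08 to 0.04, holds 0. This difference of contrasts was not tested, since each is 1 library over 1 library. The direct edgeR comparison of siSREBF1 with the oligonucleotide pair gave an adjusted p of 0.261.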

How the results depend on the processing

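No paired analysis was possible because the replicate numbers in the labels are lanes of 1 library per group. The count of genes called in the targeting comparison (9) was 509 without the low-count filter, 170 with DESeq2, 5 with limma-voom, 0 in edgeR with chemistry as a term (812 at an unadjusted 0.05) and 1 to 103 with each library left out. For the oligonucleotide pair (7) it was 563 without the filter and 1 to 955 with each library left out, and for siSREBF1 against the pair (24) it was 380 and 2 to 890. Genes 2-fold apart numbered 0 for siNegative over mock and 5 for ASO-Neg over mock with unstranded counts. Members whose sides did not overlap numbered 1 to 3 with each library left out, an alternative chosen after seeing the data: ITGA2, ITGA6 and ITGA11 without mock (24.5% of genes), and ITGA3, ITGA11 and ITGB1 without ASO-SREBF1-S1 (33.3%).

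Of the members' tested ratios under alternatives 252 kept direction and side of the threshold, 16 came to pass it and 23 changed sign, with 1 (ITGA3) in both counts. All 150 single-library ratios stayed within their counting intervals, and 1 changed sign: ITGA6 for ASO-SREBF1-S4 over ASO-Neg, from -0.019 to 0.00022 with unstranded counts. ITGAV changed sign with chemistry as a term (-0.016), and the other changes of sign came from leaving out a library. In the targeting comparison those ranges were -0.11 to 0.21 for ITGA3, -0.195 to 0.057 for ITGA6, -0.044 to 0.11 for ITGAV, -0.11 to 0.14 for ITGB1, -0.11 to 0.24 for ITGB3 and -0.042 to 0.29 for ITGB8. For the oligonucleotide pair they were -0.70 to 0.082 for ITGA1, -0.39 to 0.29 for ITGA3, -0.46 to 0.073 for ITGA6, -0.017 to 0.21 for ITGAV, -0.38 to 0.12 for ITGB1, -0.32 to 0.072 for ITGB3 and -0.19 to 0.089 for ITGB8. For siSREBF1 against the pair they were -0.31 to 0.48 for ITGA1, -0.16 to 0.52 for ITGA3, -0.039 to 0.50 for ITGA6 and -0.15 to 0.46 for ITGA11. The cause of these changes was not tested. Without the filter ITGB3 and ITGB8 had adjusted p of 0.0154 and 0.0123 for siSREBF1 against the pair, and ITGA11 had 6.66e-07 for the oligonucleotide pair against the controls. Without ASO-SREBF1-S4, ITGA1, ITGA3, ITGA6, ITGA11 and ITGB1 passed as lower in the oligonucleotide pair, and ITGA3, ITGA6, ITGB1 and ITGB3 as higher in siSREBF1 against the remaining oligonucleotide; without ASO-SREBF1-S1, ITGA3 passed as higher in the former and ITGB8 in the latter. These fits hold 1 oligonucleotide library.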
